A study of Drosophila melanogaster with 4 samples.

Results

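Isolated H3K27ac clusters in the adult fly head are stretches of acetylated chromatin with no other called cluster nearby. They were taken from the authors' lists of enrichment clusters for both ChIP replicates on the major chromosome arms 2L, 2R, 3L, 3R and X. Rows of both lists that shared at least 1 bp were merged, which gave 5999 merged clusters, of which 4958 (82.6%) held rows from both replicates. A merged cluster from both replicates was chosen by its position alone and called isolated when at least 20 kb on each side were free of any merged cluster, found in 1 replicate or in both. This left 227 isolated clusters, 4.58% of those from both replicates. They were set against the 1294 crowded clusters (26.1%), which had rows from both replicates and a neighbour within 5 kb on both sides.

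Acetylation of lysine 27 on histone H3 marks active promoters and enhancers. In flies it is written by the acetyltransferase Nejire, the fly CBP, and the same lysine can instead carry the methylation placed by the Polycomb protein E(z), so that acetylated and methylated states exclude each other on a given histone tail. The fly genome is compact, and much of its active regulatory DNA lies close together along gene-rich stretches.

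The chromatin came from nuclei of the heads of wild-type flies, strain Oregon-R (Oregon-R-modENCODE), of mixed adult age, kept in population cages, with heads separated by sieves and tissue fixed in formaldehyde. There was 1 group of 2 ChIP libraries made with an Active Motif antibody, each called by the authors against 1 of the 2 input libraries, and no treated or mutant flies were included. Heads hold neurons, glia, photoreceptors, fat body and other cells, so that a site acetylated in few cells and a weakly acetylated site cannot be told apart. The labels give neither the sex of the flies nor whether the replicates came from separate collections, so the spread between replicates may be technical. Read depth is unknown, and positions are on release 5 of the genome. Genes were not assigned, because the gene table used here is on release 6.

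The clusters were chosen by where the calls of both lists lay, and the width and score of a cluster come from the same calls. Values of isolated clusters are therefore given per replicate as descriptions, without a test. Clusters are not replicates of each other, and ± stands for the SD over both replicates (n = 2) throughout. The score is the authors' own value per cluster. Its values are on a log2 scale, so a difference of 1 is a doubling on the linear scale, but the sources used here do not give the formula.

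Highest by mean score stood the isolated cluster of 2R that runs from 976687 to 979986, scoring 1.88 in replicate 1 and 1.83 in replicate 2 (mean 1.85 ± 0.03). It was 3.27 ± 0.04 kb wide, with 258 kb free on its left and 28.1 kb on its right. A cluster on 3R from 26210695 to 26217421 scored 1.81 in replicate 1 and 1.86 in replicate 2 and was 6.24 ± 0.69 kb wide. Next was a cluster on the X from 12355560 to 12372857, with scores of 1.77 and 1.85. The order of these 3 clusters differed between the replicates, so it is not resolved.

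On 2R a further high cluster, from 433236 to 437210, scored 1.77 in replicate 1 and 1.72 in replicate 2. The cluster on 3R from 24149384 to 24167592 scored 1.75 and 1.57, and that on 2L from 21572004 to 21575268 scored 1.48 and 1.76. These last 2 clusters had the largest gaps between replicates among the 10 highest, with SDs of 0.13 and 0.20. The remaining 4 of the 10 highest were the X from 13096904 to 13107519 (1.58 and 1.65), 3R from 26882765 to 26887942 (1.58 and 1.59), 2L from 22873672 to 22877046 (1.53 and 1.60) and 3L from 11478971 to 11487537 (1.57 and 1.55). The last of these was also the highest isolated cluster of 3L. The 10 highest were spread over all 5 arms, with 3 on 3R, 2 each on 2L, 2R and the X, and 1 on 3L. Their mean widths ran from 3.03 to 17.7 kb, so a narrow lone cluster could reach the scores of wide ones.

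Among the 4958 clusters from both replicates, the highest isolated cluster ranked 96 in replicate 1 and the highest in replicate 2, on 3R, ranked 98. Isolated clusters were thus absent from the very top of the range, where scores reached 2.54 and 2.53. In replicate 1, 10 isolated clusters (4.41%) and in replicate 2, 13 (5.73%) lay in the highest 10% of clusters from both replicates, against 12.8% and 12.1% of crowded clusters. The lowest 25% held 81 (35.7%) and 65 (28.6%) of the isolated clusters, against 21.2% and 23.3% of the crowded.

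Scores of isolated clusters ran from 0.10 to 1.88 in replicate 1, with a median of 0.77, and from 0.18 to 1.86 in replicate 2, with a median of 0.77. The medians of crowded clusters were 0.97 and 0.91. The isolated median lay below the crowded one by -0.19 in replicate 1 and -0.14 in replicate 2 (-0.17 ± 0.04), which is a linear factor of 0.876 and 0.907. The direction was the same in both libraries and the size was larger than the spread between them, while the score ranges of the classes overlapped widely.

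Isolated clusters were also narrower. Their median width was 2862 bp in replicate 1 and 2997 bp in replicate 2, against 3724 and 3779 bp for crowded clusters, a ratio of 0.78 ± 0.02. Only 7 isolated clusters (3.08%) reached 10 kb in each replicate, compared with 165 crowded clusters (12.8%). At the narrow end, 47 (20.7%) and 43 (18.9%) isolated clusters measured under 2 kb, against 11.0% and 12.9% of the crowded. The narrowest isolated clusters were 1306 bp (replicate 1) and 1311 bp (replicate 2) wide, close to the narrowest of all clusters from both replicates at 1303 and 1301 bp. The 227 isolated clusters covered 833 kb in replicate 1 and 857 kb in replicate 2.

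**Figure D1:**
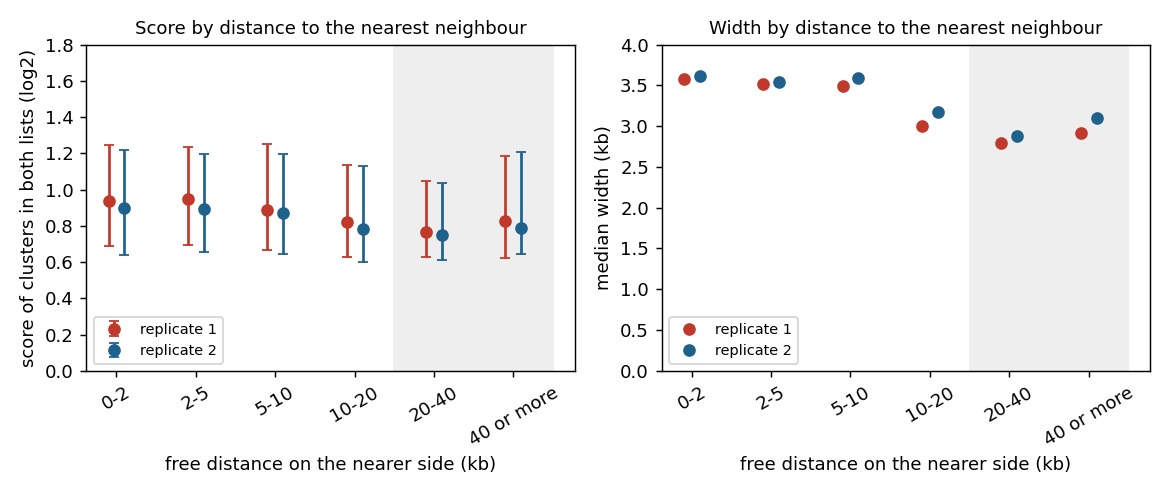
Median score (log2, left, bars from the lower to the upper quartile over clusters) and median width (kb, right) of clusters from both replicates, by the free distance on their nearer side, for each replicate. Both medians change little up to 10 kb, at 0.87 to 0.95 and 3495 to 3611 bp, and are lower from 10 kb upward; the shaded classes hold the isolated clusters.

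The lower values did not set in at the 20 kb limit. Clusters from both replicates whose nearer neighbour was 5 to 10 kb away had median scores of 0.89 in replicate 1 and 0.87 in replicate 2 and median widths of 3495 and 3596 bp. At 10 to 20 kb the scores were 0.82 and 0.78 and the widths 3001 and 3169 bp. At 20 to 40 kb they were 0.77 and 0.75, with widths of 2793 and 2875.5 bp. The 75 clusters with 40 kb or more on the nearer side did not continue this course, with scores of 0.83 and 0.79 and widths of 2917 and 3098 bp.

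Much of the difference in score went with width. Wider isolated clusters scored higher, with Spearman's rho across the 227 clusters of 0.73 in replicate 1 and 0.70 in replicate 2, where width and score come from the same calls. Between 1.5 and 2.5 kb the median score of isolated clusters was 0.62 in replicate 1 and 0.60 in replicate 2, against 0.62 and 0.57 for crowded clusters of that width. From 2.5 to 3.5 kb it was 0.92 and 0.88, against 0.89 and 0.84. The medians of isolated clusters of these widths thus lay within 0.04 of the crowded ones, and 62.1% of isolated clusters in replicate 1 and 58.1% in replicate 2 had such widths.

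Among wider clusters the isolated ones had lower medians. From 3.5 to 5 kb their medians were 0.85 and 0.87 against 1.06 and 1.03, and at 5 kb or more they were 1.13 and 1.12 against 1.28 and 1.26. That last class has no upper limit and its crowded clusters reach larger widths. Bounded at 5 to 10 kb, a class formed after the values were seen, the medians were 1.10 and 1.11 against 1.19 and 1.16, a difference of -0.09 and -0.05. The few isolated clusters under 1.5 kb, 13 and 12 in number, had medians of 0.54 and 0.42 against 0.57 and 0.50. When crowded clusters were weighted to the width classes of the isolated ones, the difference in median score shrank to -0.06 in replicate 1 and -0.05 in replicate 2.

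**Figure D2:**
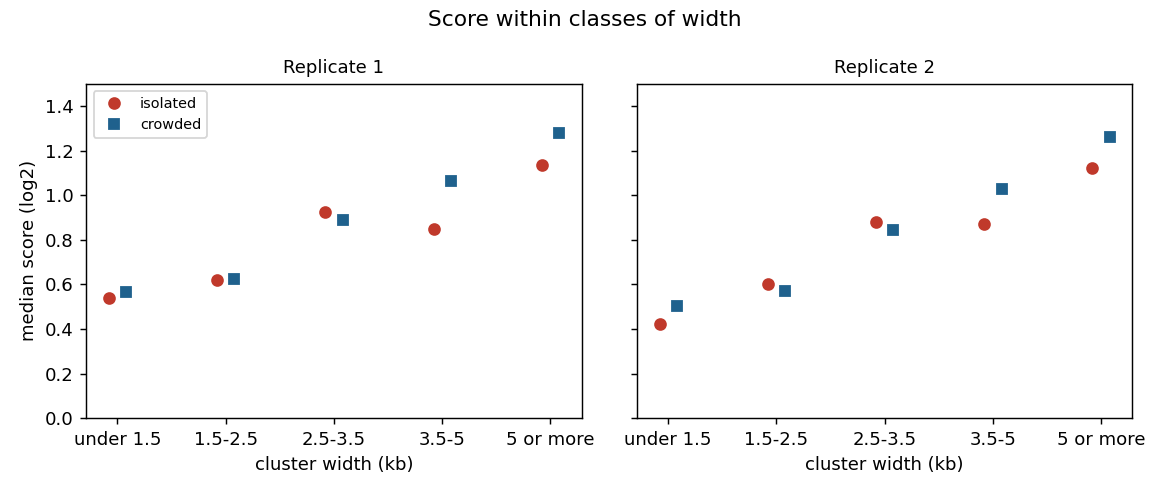
Median score (log2) of isolated and crowded clusters within classes of width (kb), in replicate 1 (left) and replicate 2 (right). From 1.5 to 3.5 kb the classes lie within 0.04 of each other, and at 3.5 kb or more the isolated clusters lie 0.14 to 0.22 lower; the widest class has no upper limit, and bounded at 10 kb its differences are -0.09 and -0.05.

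The isolated cluster of largest mean width lay on 3R from 24149384 to 24167592 and was also among the 10 highest, with widths of 18209 bp in replicate 1 and 17149 bp in replicate 2. On 3R from 8404687 to 8423239 each replicate held a pair of rows that together measured 18034 and 17014 bp, with scores of only 1.02 and 1.08. The X cluster from 12355560 measured 17298 and 17203 bp. These 3 widths overlapped between replicates, and their order is not resolved. After them came 3R from 14397849 to 14412761, with 14896 and 14766 bp and scores of 1.52 and 1.40. The next was 2L from 8820258 to 8833714, with 11569 and 12773 bp and scores of 0.90 and 0.87. The widest lone clusters thus included both high and middling scores.

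Free distance on the nearer side had a median of 30.8 kb and reached 149.5 kb, and on the farther side the median was 62.7 kb. It was at least 50 kb for 42 isolated clusters (18.5%) and at least 100 kb for 6. The loneliest cluster lay on 2R from 17758969 to 17761910, with 149.5 kb free on its left and 150 kb on its right, and scored 0.67 in replicate 1 and 0.65 in replicate 2. On 3R from 12623495 to 12625446, with 141 and 181 kb free, the scores were 0.10 and 0.31. This was the lowest score of all 4958 clusters in replicate 1, at rank 4958, and rank 4866 in replicate 2.

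The 3L cluster from 23329796 to 23333802 had 129 and 331 kb free and scored 0.94 and 0.96. An X cluster from 20526211 to 20534100, with 129 and 128 kb free, scored 1.24 and 1.22 and was 7.64 ± 0.06 kb wide. A 2L cluster from 1360969 to 1362747, with 103 and 212 kb free, scored 0.48 and 0.41. Scores of these 5 loneliest clusters therefore ran from near the lowest of the list to well above the median of isolated clusters. None of the 5 had a cluster of the replicate-set list within 20 kb.

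At the 20 kb limit, the clusters just inside were 2R from 16413135 to 16423515 (20.003 kb free, scores 1.13 and 1.34), 3R from 15904065 to 15906704 (20.04 kb, 0.68 and 0.71) and 3L from 13956651 to 13959989 (20.153 kb, 1.01 and 0.96). Just outside were 3L from 3591098 to 3593655 (19.941 kb, 0.58 and 0.57), 2L from 21343380 to 21346962 (19.904 kb, 1.42 and 1.40) and 3R from 16482553 to 16485845 (19.735 kb, 0.76 and 0.74).

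Isolated clusters were made by long gaps, which took up much of the arms. Of the 5994 gaps between neighbouring merged clusters, 1146 (19.1%) reached 20 kb, and these took up 64.0 Mb or 53.8% of the 119 Mb of the arms. A further 1376 clusters from both replicates had 20 kb free on 1 side only. Beyond the distance that the rule used, a median of 6 other merged clusters (quartiles 3 and 9) were centred 20 to 100 kb from an isolated cluster, over the 223 with 100 kb of arm on each side. Around crowded clusters the median was 10 (quartiles 7 and 12), and around all clusters from both replicates it was 9 (quartiles 6 and 12). The gaps that the rule asks for often run on past 20 kb, so a lower count at 20 to 100 kb is partly built in.

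Some isolated clusters followed each other. Of the 227, 99 (43.6%) had another isolated cluster as a direct neighbour; every neighbour already has 1 free side by the rule, so nothing is read from this count. There were 128 that stood alone in this sense, 26 pairs, 8 runs of 3, 2 runs of 4, 1 of 6 and 1 of 9. The run of 9 lay on 2R from 73662 to 560961, beginning 73.7 kb from the centromere end of the assembled arm. Over 487 kb its clusters covered 27.6 kb in each replicate, and their scores had medians of 1.29 in replicate 1 and 1.30 in replicate 2.

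The run of 6 lay at the matching end of 2L, from 22470105 to 22877046, with median scores of 1.10 and 1.13. On 3L a run of 4 from 23707255 to 24068923 held scores from 1.06 to 1.37 in replicate 1 and from 1.31 to 1.41 in replicate 2, with a gap of 288 kb inside it. The other run of 4, on 3R from 24149384 to 24371135, lay far from the centromere and combined the cluster from 24149384, one of the 3 widest, with weaker ones, at median scores of 0.58 and 0.63. The 3 runs of 4 or more near a centromere thus had medians well above the 0.77 of all isolated clusters in both replicates. Shorter runs lay within 3 Mb of a centromere end too. A run of 3 on 3L, from 23141547 to 23333802, had mean scores of 1.34, 1.33 and 0.95. A pair on the X, from 20526211 to 20664101, had 1.23 and 0.56.

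Near the centromere, isolated clusters formed a larger part of all clusters on every arm but 3R. In the 3 Mb next to the centromere end of the arms lay 39 isolated clusters, or 17.2% (95% Wilson interval 12.8 to 22.6, counting error only), compared with 9.38% of all clusters from both replicates and 7.65% of crowded ones. This zone makes up 12.6% of the length of the arms. Pooled over the arms it thus holds fewer clusters for its length. Isolation is set by spacing, so a larger isolated share in a sparse zone is partly built in. On 3L, 19.6% of the clusters from both replicates in the zone were isolated, against 3.54% elsewhere. The shares were 12.3% against 4.18% on 2L, 11.0% against 3.90% on 2R and 5.95% against 4.01% on the X. The X zone held only 5 isolated clusters. They were 13.2% (5.75 to 27.3) of those of the X, against 9.27% of all its clusters from both replicates. 3R went the other way, with 1.43% against 5.13%, and held only 2 isolated clusters in the zone.

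Isolated clusters of this zone scored higher than those elsewhere, at medians of 1.02 in replicate 1 and 1.02 in replicate 2 against 0.75 and 0.74. Their median widths were close, at 2951 and 3010 bp against 2858.5 and 2985 bp, but their widths spread less. The upper quartile averaged 3519 bp over both replicates in the zone and 4480 bp elsewhere, 10.3% against 21.8% were under 2 kb, and the widest in the zone had a mean width of 7.68 kb. Of the 39, 19 (48.7%) had a mean score above 1, against 51 of 188 (27.1%) elsewhere, and 4 of the 10 highest isolated clusters lay there. Among isolated clusters with a mean width of 1.5 to 3.5 kb, 28 in the zone had medians of 0.95 and 1.00 and 114 elsewhere had 0.66 and 0.66.

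By arm, the isolated clusters of the zone had medians of 1.22 and 1.13 on 2L (n = 10), 1.11 and 1.14 on 2R (n = 12) and 1.15 and 1.28 on 3L (n = 10). Elsewhere on these arms the medians were 0.70 and 0.70, 0.76 and 0.75, and 0.66 and 0.69. On the X the 5 isolated clusters of the zone lay lower than the other 33, at 0.77 and 0.91 against 0.90 and 1.01. The 2 on 3R were lower as well, at 0.57 and 0.56 against 0.75 and 0.71. The median near the centromere was thus higher on 2L, 2R and 3L in both replicates and not on 3R or the X. The zone members of 2L, 2R and 3L include the runs named above, so the 2 observations are not separate. The runs hold 9 of the 12 on 2R, 6 of the 10 on 2L, and 4 and 3 of the 10 on 3L. Outside them, mean scores over both replicates were 1.85, 0.62 and 0.44 on 2R and 1.62, 1.26, 1.18 and 0.39 on 2L. On 3L they were 0.93, 0.71 and 0.68.

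Pooled over the arms, crowded clusters showed little of this. Their median scores were 0.98 and 0.96 in the 3 Mb zone and 0.96 and 0.91 elsewhere. In pooled values the isolated clusters of the zone stood slightly above the crowded ones, by 0.05 in replicate 1 and 0.07 in replicate 2. Elsewhere they stood below by -0.22 and -0.16. The classes were spread differently over the arms, however. In the zone, 36 of 99 crowded clusters lay on 3R and 30 on the X. Of the 39 isolated ones, 2 and 5 did. Crowded scores in the zone were not split by arm, so the part of this mix was not tested.

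**Figure D3:**
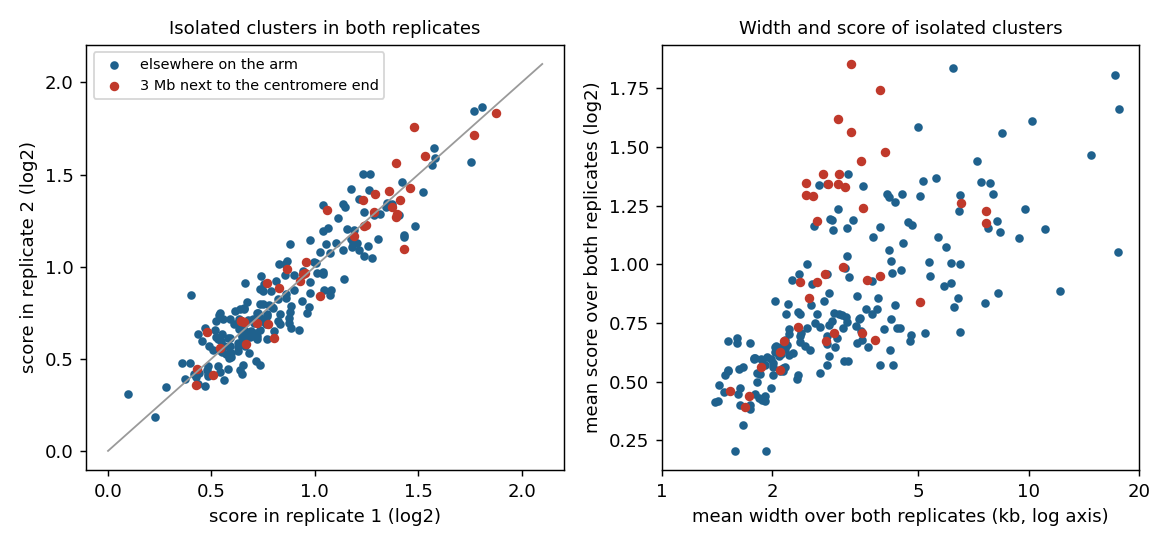
Left, score (log2) of the 227 isolated clusters in replicate 1 against replicate 2, with the line of equal scores. Right, mean score against mean width (kb, log axis); clusters in the 3 Mb next to the centromere end (39, red) reach mean scores of up to 1.85 at mean widths of no more than 7.68 kb.

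Along the rest of the arms, isolated clusters had no even course. With each arm divided into 5 bins of 20% of its length, the bin next to the centromere held 21.6% of them, the next bin 13.2%, and the remaining bins 21.6%, 23.3% and 20.3% toward the telomere. Crowded clusters had 16.8%, 20.8%, 18.5%, 23.6% and 20.2% in the same order. All clusters from both replicates had 18.1%, 19.4%, 20.0%, 21.6% and 20.9%. Bin 2 held fewer isolated clusters than both bins beside it only on 3L, with 2 against 12 and 14, and on the X, with 5 against 7 and 10. On the other arms it lay between them, with 9 against 11 and 5 on 2L and 5 against 13 and 3 on 2R. On 3R it had 9 against 6 and 17. Median scores of isolated clusters fell from 0.95 and 0.92 in the bin at the centromere to 0.72 and 0.72 in the middle bin and were 0.80 and 0.79 in the bin at the telomere.

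**Figure D4:**
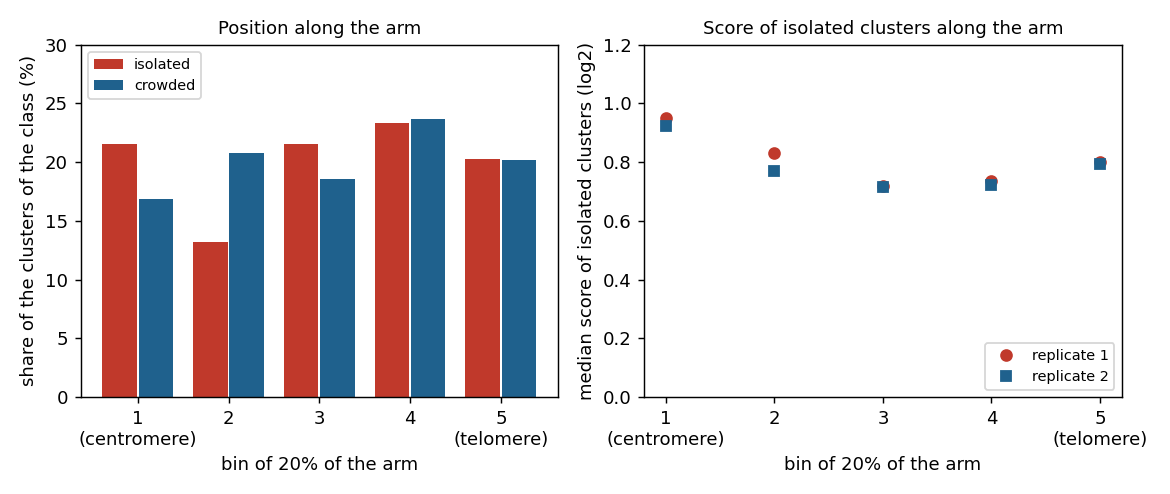
Left, share (%) of isolated and of crowded clusters in each bin of 20% of the arms, counted from the centromere end and pooled over 5 arms. Right, median score (log2) of isolated clusters in each bin, per replicate; it is highest next to the centromere, at 0.95 and 0.92.

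Isolated clusters were found on all 5 arms. There were 56 on 3R, 46 on 2R, 44 on 2L, 43 on 3L and 38 on the X, which is 1.69 per Mb on the X and 2.18 per Mb on 2R, with the other arms between. As a share of clusters from both replicates they ran from 4.19% on the X (95% Wilson interval 3.07 to 5.70, counting error only) to 4.92% on 2L (3.68 to 6.54). No difference between arms was tested. Crowded clusters were 30.0% of those on the X and 24.2% to 25.8% on the autosome arms.

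Isolated clusters of the X had the highest medians of score, at 0.89 in replicate 1 and 0.97 in replicate 2. The autosome arms ran from 0.72 to 0.82 in replicate 1 and from 0.71 to 0.79 in replicate 2. On every arm and in both replicates the isolated median lay below the crowded one. The gap was -0.24 and -0.17 on the X, and on the autosome arms it lay between -0.17 and -0.13 in replicate 1 and between -0.12 and -0.11 in replicate 2.

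In median width the isolated clusters of the X were close to those of the autosomes, at 2974 and 2934 bp against 2855 and 2997 bp. Their upper quartiles were higher, at 5018 and 5200 bp against 3996 and 4124 bp. Crowded clusters of the X had far larger medians, at 4717.5 and 4784.5 bp against 3520.5 and 3473.5 bp. The ratio of median width of isolated to crowded clusters was accordingly 0.62 ± 0.01 on the X and 0.84 ± 0.04 on the autosome arms together. The greater median width of clusters on the X was thus seen among crowded clusters, and among isolated ones it was the upper quartile that was larger. The higher score was seen in both classes. With a single group of 2 libraries no such difference was tested.

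**Figure D5:**
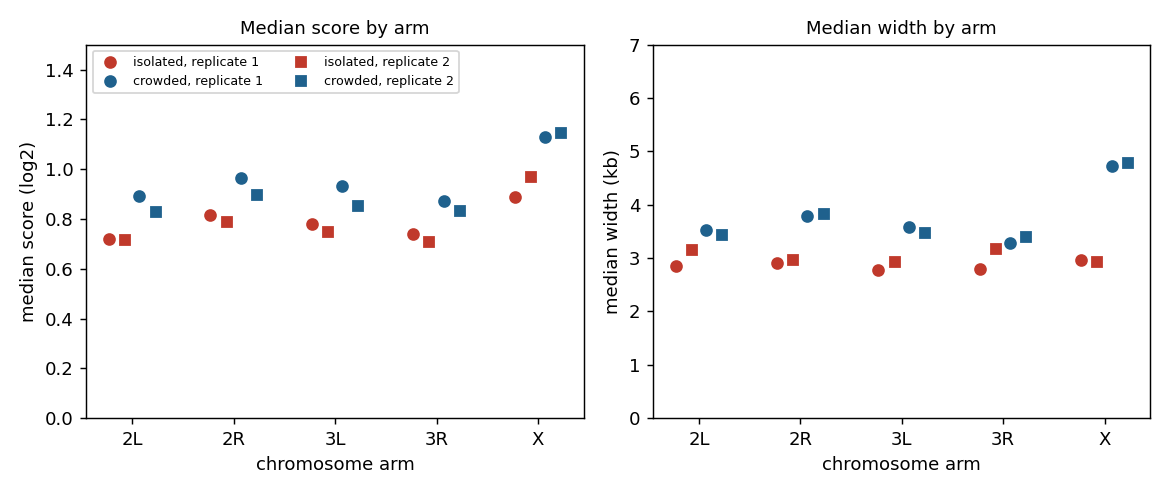
Median score (log2, left) and median width (kb, right) of isolated and crowded clusters on each arm, in replicate 1 (circles) and replicate 2 (squares). Isolated medians are lower on every arm, and the width gap is largest on the X, at 2974 and 2934 bp against 4717.5 and 4784.5 bp.

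The replicates were as close for isolated clusters as for others in position and score, and their widths had a lower rank correlation. Of the 227, 211 (93.0%) were made of 1 row from each replicate, and 16 (7.05%) were split in at least 1 list, against 13.0% of crowded clusters. Their starts differed by a median of 136 bp between replicates and their ends by 131 bp, against 136 and 143 bp over all clusters from both replicates. Across the isolated clusters, which share the same 2 libraries, scores of the replicates had a rho of 0.91 and a Pearson's r of 0.93, against 0.92 and 0.94 over all clusters from both replicates. For width the rho was 0.885 against 0.938. Isolated clusters span a narrower range of widths, with 3.08% at 10 kb or more against 11.8%, and the part of this in the lower rho was not tested. The median absolute difference in score was 0.08. The largest difference was 0.45.

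The balance between the replicates differed by chromosome. Of the 189 isolated clusters on the autosome arms, 109 (57.7%) scored higher in replicate 1, and on the X 14 of 38 (36.8%) did. Crowded clusters had the same order, with 66.9% on the autosome arms and 39.7% on the X. For width, replicate 2 was the wider in 128 of 227 isolated clusters (56.4%) and in 545 of 1294 crowded clusters (42.1%).

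The support of lone clusters by both replicates can be counted without the demand for it. Among all 301 merged clusters with 20 kb free on each side, 227 (75.4%, 95% Wilson interval 70.3 to 79.9, counting error only) held rows from both replicates. For the 1529 merged clusters with neighbours within 5 kb on both sides the share was 84.6% (82.7 to 86.4). The share was 83.0% to 83.1% in each class of free distance below 20 kb. Of the 74 lone clusters found in 1 replicate, 54 came from replicate 2 and 20 from replicate 1, and of the 235 crowded ones 126 came from replicate 2 and 109 from replicate 1. Those 74 were narrow and weak, as were clusters found in 1 replicate in general. Their median widths were 1591 bp for replicate 1 and 1729.5 bp for replicate 2, with median scores of 0.53 and 0.55, and over all 1041 such clusters the values were 1664 and 1693 bp and 0.55 and 0.57. A row present in 1 list only also counts as a neighbour, so 90 of the 453 neighbours of isolated clusters (19.9%) came from 1 replicate, against 16.5% of the neighbours of all clusters from both replicates.

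Isolation can also be judged in 1 list and the values read in the other, which keeps the choice and the measurement in separate libraries. By the list of replicate 1 alone, 305 clusters had 20 kb free on each side, and 279 of them (91.5%) overlapped a cluster of replicate 2, where their median score was 0.77. The 1418 crowded clusters by the same list had 93.4% and a median of 0.94 in replicate 2. By the list of replicate 2 alone there were 339 isolated clusters, of which 276 (81.4%, 95% Wilson interval 76.9 to 85.2) overlapped replicate 1, with a median score there of 0.77. The 1488 crowded clusters had 92.9% and 0.99. The difference in median score was thus -0.17 when measured in replicate 2 and -0.22 when measured in replicate 1, against -0.14 and -0.19 for the merged clusters. Over all clusters chosen, score medians in the choosing list itself lay closer. They were 0.74 for isolated and 0.89 for crowded clusters in replicate 1, and 0.70 and 0.84 in replicate 2. Only clusters with a partner have a value in the other list. The difference in median width was larger than for the merged clusters, at -1471 bp in replicate 2 and -1739 bp in replicate 1 against -782 and -862 bp. In the list used for choosing, the width medians lay closer as well. They were 2624 bp for isolated and 3266.5 bp for crowded clusters in replicate 1, and 2647 and 3204 bp in replicate 2. Crowded medians rose to 4413 and 4624 bp in the other list, and isolated ones to 2942 and 2885 bp. The part of the matching between lists in this was not tested.

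The authors' list for the replicate set, which holds 6782 clusters on these arms and draws on the same experiment, contained all 227 isolated clusters, as it did all 4958 clusters from both replicates. As a single cluster it held 226 of the isolated ones and 4909 of the 4958. Its median width was 3370 bp for isolated and 5282 bp for crowded clusters, and its median score was 0.69 and 0.91. In that list 310 crowded clusters (24.0%) were joined with another merged cluster and took the whole width of the joined cluster. This held for 0 isolated clusters, for which the free 20 kb leaves little room, and for 12.7% of all. The widths of the classes are therefore not measured alike there. In 152 isolated clusters (67.0%) the free flanks were empty in that list too.

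For the other 75 (33.0%) the replicate-set list placed at least 1 cluster within 20 kb. These flanking clusters numbered 101 and were small and weak, with a median width of 1460 bp, a median score of 0.41 and a highest score of 0.78, against medians of 3023 bp and 0.62 for the whole of that list on these arms. Of these, 3 overlapped a merged cluster of the replicate lists. The rule leaves no merged cluster within 20 kb, so such an overlap is possible only across that limit. Nothing is read from this count. The flanking clusters are in this way limited to those that the replicate lists mostly lack, and the whole of that list is not. Isolated clusters with and without such a neighbour had close scores, at medians of 0.77 and 0.78 with and 0.80 and 0.76 without. In the 3 Mb next to the centromere end lay 33 of the 152 clusters with empty flanks (21.7%) and 6 of the 75 others (8%).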

How the data were processed

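Per the file headers, positions refer to FlyBase release 5. The submitters' processing notes name Bowtie 0.12.7. No source used here gives the cluster caller or its thresholds. The authors deposited 3 lists of clusters, each with a score; the deposited scores are on a log2 scale, as differences from the commonest score, raised to base 2, gave ratios of whole numbers (denominators up to 20000, relative tolerance 1e-12) for 100% of clusters in replicate 1 and 99.97% in replicate 2, against at most 0.44% with base e or 10. The replicate-set list was used for description only, without its 1 entry marked as depleted.

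Where a merged cluster held several rows of a replicate, their widths were summed and the highest score was taken. Toward an arm end, 20 kb of sequence had to be free as well; 1 isolated cluster was the outermost of its arm. Where shares carry 95% Wilson intervals, these give counting error only. They treat clusters as independent, although all come from the same 2 libraries, and they test no difference. Merging and free distances were tested on simulated lists against a base-by-base computation. Named clusters are the 10 highest by mean score, the 5 widest, the 5 with most free distance on the nearer side, the 3 on either side of the limit and the highest of each arm. Members, classes and alternatives were chosen with earlier results of these data known, and the width classes and the 3 Mb zone are choices of this kind. No difference was tested. Alternatives changed the distance, the neighbours counted, the overlap, the merging, the score limit and the replicates used. The tools were scipy 1.17.1, matplotlib 3.10.9, pandas 2.3.3 and numpy 2.4.6 under Python 3.11.15.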

Additional observations from a re-analysis of the deposited data

How the results depend on the processing

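The number of isolated clusters depends on the rule: 586 with 10 kb and 115 with 30 kb free on each side, and 353 when only clusters from both replicates count as neighbours, in place of 227. Leaving out a replicate gave 305 to 339 clusters with median widths of 2624 to 2647 bp and median scores of 0.70 to 0.74; in these the other list supplies no neighbours and no partner is asked for. The median width of 2929.5 bp moved to 3064.5 bp when rows within 500 bp were merged and to 3638.5 bp when rows below the lower quartile of score were removed. The median score of 0.77 was 0.79 with 10 kb free, 0.78 with 30 kb free, 0.79 with 50% reciprocal overlap, 0.79 with rows within 500 bp merged, 0.96 without rows below the lower quartile, 0.75 without the 3 Mb at the centromere ends, and 0.78 when clusters of the replicate-set list counted as neighbours too, an alternative added after the data were seen. That last alternative left 152 clusters.

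The difference in median score between isolated and crowded clusters of -0.17 stayed between -0.19 and -0.13 under 10 alternatives, and became -0.051 with crowded clusters weighted to the widths of the isolated ones. The share near the centromere was 13.7% to 21.7% under 9 alternatives. No paired analysis was possible because there is 1 group of ChIP libraries, and the inputs of the same numbers have no list of their own here. Read depth is unknown, and its part in how many lone clusters were called was not tested.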
